A study of Mus musculus with 28 samples.

Results

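The inner mitochondrial membrane of the hepatocyte carries complexes I to V of oxidative phosphorylation, and the RNA of their nuclear-encoded subunits was examined in mouse liver tumors and in non-tumor liver. Genes were taken by symbol: those beginning Ndufa, Ndufb, Ndufc, Ndufs or Ndufv (the assembly factors named Ndufaf were left out), Uqcr, Cox4i, Cox5 to Cox8 and Atp5, together with Sdha, Sdhb, Sdhc, Sdhd and Cyc1. The rule found 86 of the 22187 genes in the table. Of these, 79 reached 1 CPM (counts scaled to a library total of 1000000) in at least 3 of the 28 libraries, as did 13503 genes in all. They comprised 36 genes of complex I, 4 of complex II, 9 of complex III, 14 of complex IV and 16 of complex V. The subunits encoded on mitochondrial DNA were not analysed here.

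In the respiratory chain, complex I takes electrons from NADH and complex II takes them from succinate, both pass them through ubiquinone to complex III and cytochrome c, and complex IV gives them to oxygen. Complexes I, III and IV pump protons across the membrane, and complex V, the ATP synthase, uses the returning protons to make ATP. Complex II is also an enzyme of the citric acid cycle and has no subunit encoded on mitochondrial DNA. Hepatocytes are rich in mitochondria and use the chain to power gluconeogenesis, urea synthesis and the oxidation of fatty acids and ethanol products.

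All mice were C57BL/6 mice carrying a floxed Il17ra, the gene for a chain of the interleukin-17 receptor, and all received the liver carcinogen diethylnitrosamine (DEN, 25 mg/kg) at 2 weeks of age. In dHEP mice a Cre recombinase under the albumin promoter, which acts in hepatocytes, was added, and FF mice had the floxed gene without Cre. Mice were then fed an ethanol diet or chow for 18 weeks, and bulk RNA was sequenced from liver tumors and from non-tumor liver. The 8 groups of genotype, diet and tissue held 4 libraries each on alcohol and 3 each on chow. In the labels the ethanol diet is called liquid ethanol feeding in one place and HFD_alcohol (a high-fat diet) in another, and mice on the 2 diets carry separate number series, so alcohol, fat and cohort cannot be told apart. The tumor and the non-tumor library of 11 mice share a number, which was taken as the animal. In the FF chow group the numbers of the 3 tumors differ from those of the 3 non-tumor samples. The labels give no sex, and name polyA RNA beside a kit for total RNA.

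Libraries held 9.57 to 17.8 M reads (1 M is 1000000), estimated from the step between low values. Il17ra ranged from 14.7 to 31.0 CPM in non-tumor liver of FF mice and from 8.34 to 12.99 CPM in that of dHEP mice, with no overlap. In tumors it ranged from 20.8 to 33.9 and from 8.38 to 29.4 CPM in turn, with overlap. The 10 hepatocyte markers summed to between 57313 and 98251 CPM in non-tumor liver and to between 83455 and 179596 CPM in tumors, sums that rest mostly on Alb, which was higher in tumors. Defining genes of striated muscle were absent or nearly so: Mb was at 0 in every library and Ckm did not exceed 0.121 CPM. Tumor dHEP-550, on alcohol, stood apart from the other tumors in the summed level of the respiratory chain genes, and the counts of calls and medians that it moves by over 1.5 times are given with and without it.

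The starts of these genes are known for sites of the nuclear respiratory factor NRF1, of ETS proteins such as GABP (also called NRF2) and of YY1. Windows of 300 bases (250 before the start and 50 after it) from RefSeq (GRCm38.p6) matched 65 of the 79 genes. They were searched on both strands for GCGCA and GCGC with any 1 base between (NRF1), CCGGAAG (ETS) and AAGATGGCG (YY1). Stretches before the start of 7 genes are printed, with matches in capitals, and bases that the annotation places in an exon of the gene or of a neighbour on either strand are left out. Sdha, Sdhd, Atp5h and Cox6a1, which fell in tumors, are shown for their matches. Uqcrh, which was not called, has an ETS match, and Ndufa3 and Cox7a2l hold none of the letters and moved in opposite directions. They lie at chr13:74350281-74350308 (Sdha, minus strand), chr9:50603850-50603909 (Sdhd, minus strand), chr11:115419963-115420127 (Atp5h, minus strand), chr5:115348982-115349129 (Cox6a1, minus strand), chr4:116075072-116075268 (Uqcrh, minus strand), chr7:3617123-3617372 (Ndufa3, plus strand) and chr17:83514334-83514583 (Cox7a2l, minus strand).
Sdha: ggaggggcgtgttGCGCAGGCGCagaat
Sdhd: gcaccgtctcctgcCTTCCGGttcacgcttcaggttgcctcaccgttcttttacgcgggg
Atp5h: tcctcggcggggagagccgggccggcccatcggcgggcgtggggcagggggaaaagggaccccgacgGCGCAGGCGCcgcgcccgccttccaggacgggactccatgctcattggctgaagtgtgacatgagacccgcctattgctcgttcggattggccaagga
Cox6a1: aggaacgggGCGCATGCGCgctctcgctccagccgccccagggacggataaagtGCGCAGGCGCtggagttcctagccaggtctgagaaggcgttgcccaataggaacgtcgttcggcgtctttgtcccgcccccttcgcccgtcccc
Uqcrh: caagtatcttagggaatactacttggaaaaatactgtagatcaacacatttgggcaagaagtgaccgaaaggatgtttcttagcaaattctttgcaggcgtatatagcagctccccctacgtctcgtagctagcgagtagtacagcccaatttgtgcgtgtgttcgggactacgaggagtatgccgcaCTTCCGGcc
Ndufa3: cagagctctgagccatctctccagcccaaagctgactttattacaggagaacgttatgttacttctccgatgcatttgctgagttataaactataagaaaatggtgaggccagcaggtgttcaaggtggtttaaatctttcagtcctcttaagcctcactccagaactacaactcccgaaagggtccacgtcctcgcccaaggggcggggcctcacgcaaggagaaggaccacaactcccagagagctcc
Cox7a2l: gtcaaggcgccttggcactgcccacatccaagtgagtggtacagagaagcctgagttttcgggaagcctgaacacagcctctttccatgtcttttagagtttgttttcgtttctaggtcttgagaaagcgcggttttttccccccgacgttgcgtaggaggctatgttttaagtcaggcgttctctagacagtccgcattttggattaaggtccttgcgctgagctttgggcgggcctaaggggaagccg
The stretch of Sdha holds 1 of its 3 NRF1 matches, and the other 2 fall in bases left out. Cox6a1 holds 2 NRF1 matches and Atp5h 1, and the ETS matches of Sdhd and Uqcrh are read on the opposite strand. The NRF1 match of Sdhd and the ETS matches of Atp5h and Cox6a1 also fall in bases left out. The start used for Cox7a2l lies inside the annotated span of the gene.

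An NRF1 match was present in 16 of the 65 windows (24.6%), against 5.19% of all 27025 genes with a window and 10.9% of the 10425 of these that passed the CPM filter. An ETS match was found in 16 (24.6%) against 9.93% and 19.1%, and a YY1 match in 7 (10.8%) against 1.64% and 3.38%. The table held no window, for the 65 or for all 27025 genes, in which an ETS match overlapped a YY1 match, and it is not complete, so the ETS and YY1 shares describe only the windows at hand. By complex, NRF1 matches stood in 7 of 32 windows of complex I, 2 of 3 of complex II, 1 of 5 of complex III, 1 of 11 of complex IV and 5 of 14 of complex V. Sdha and Ndufb4 were the 2 members with 3 NRF1 matches in a window, as had 30 of all 27025 genes (0.111%). A match is a stretch of letters and not a measured binding site.

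Within each complex the level per kb of exon differed widely between subunits, averaged over the 28 libraries. The length used was that of all annotated exons of a gene merged, whichever transcripts were present. It was 6883 bases for Ndufab1 and 6443 for Atp5l, against 1031 for Ndufb9 and 1095 for Ndufa4l2. The order of subunits therefore depends on these lengths as well as on CPM. In complex I it ran from 4.44 CPM per kb for Ndufab1, the mitochondrial acyl carrier protein, to 111 for the accessory subunit Ndufb9, with a median of 35.4. Complex II ran from 30.0 for Sdhc to 105 for Sdhd, the 2 subunits that anchor it in the membrane. Complex III ran from 30.0 for Cyc1, the cytochrome c1 subunit, to 164.9 for the small subunit Uqcr11. In complex IV the highest was the liver isoform Cox6a1 at 243 CPM per kb. The lowest was Ndufa4l2, a paralog of the complex IV subunit Ndufa4, at 1.07, while Ndufa4 stood at 110.3. Complex V reached 230 for Atp5a1, the alpha subunit of its catalytic head, and its lowest value was 0.268 for Atp5l.

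Several isoforms of complex IV, those of muscle among them, had low averages. Of the 7 genes that matched the rule but missed the filter, Cox7b2, Cox8c and Atp5g2 of complex V were listed at 0 in all 28 libraries. Cox4i2, Cox6a2, Cox6b2 and Cox8b averaged between 0.0786 and 0.277 CPM, and the highest tumor value of Cox6a2 was 5.27 CPM. Cox8b, the muscle partner of Cox8a, averaged 0.790 ± 0.367 CPM in non-tumor liver of FF mice on alcohol and 0.550 ± 0.363 CPM in that of dHEP mice on alcohol (SD, n = 4 each). Cox7a1, the muscle partner of Cox7a2, passed the filter at 0.807 CPM in non-tumor liver and 1.10 CPM in tumors. Its highest values were 4.43 CPM in tumor FF-168 and 3.33 CPM in tumor dHEP-550.

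Some low values belong to genes with near-identical copies. Of the 79 genes, 20 have at least 1 other annotated locus with 95% or more identity to 80% or more of their coding sequence, between which reads could have been split. Atp5l, subunit g of complex V, averaged 1.73 CPM, while Gm10221, whose sequence is identical to its coding sequence, averaged 114 ± 9.35 CPM in non-tumor liver and 88.7 ± 18.0 CPM in tumors (n = 14 each). Atp5g2, a gene for subunit c, was listed at 0 while its identical copy Gm10175 averaged 65.2 ± 7.63 and 75.5 ± 12.7 CPM. Cox7c averaged 5.72 CPM and has 3 annotated copies, none of which is among the genes measured. The levels of Atp5l, Atp5g2 and Cox7c are therefore uncertain, and the copies were looked up after these values had been seen.

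Summed over the 79 genes, respiratory chain RNA was lower in most tumors than in non-tumor liver. The sum lay between 8213 and 10167 CPM in the 14 non-tumor libraries, 0.821% to 1.02% of each library, and between 5512 and 11433 CPM in the 14 tumors. Complex II had the largest proportional difference, with sums of 865 ± 57.5 CPM in non-tumor liver and 554 ± 125 CPM in tumors (SD, n = 14 each). Sdha alone averaged 467 and 253 CPM of these, and the ranking was not examined without it. The sums in non-tumor liver and tumors were 2314 ± 127 and 1833 ± 359.8 CPM for complex I, 1059 ± 51.0 and 814 ± 186 for complex III, 1542 ± 101 and 1247 ± 275 for complex IV, and 3261 ± 207 and 2535 ± 630.2 for complex V. Without tumor dHEP-550 the tumor sums were 1754 ± 211 CPM for complex I, 528 ± 83.1 for II, 772 ± 109 for III, 1188 ± 174 for IV and 2397 ± 378 for V (SD, n = 13). These sums were not tested. In bulk tissue, fewer cells of a type and less RNA per cell cannot be told apart.

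**Figure D1:**
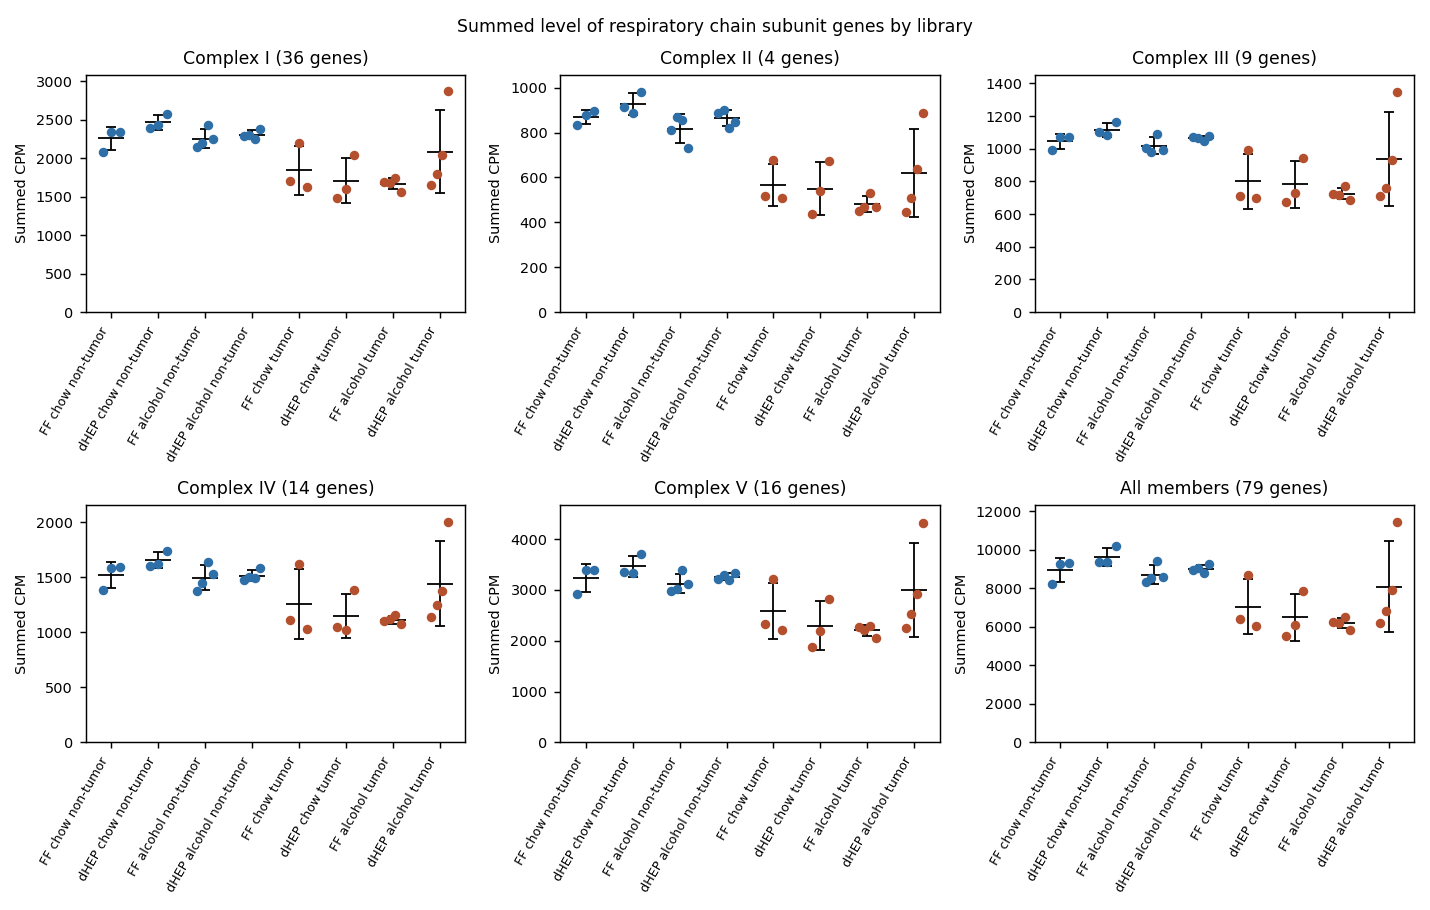
Summed CPM of the 79 genes in each of the 28 libraries, by group and tissue. The non-tumor libraries sit between 8213 and 10167 CPM, most tumors sit below them, and tumor dHEP-550 is the highest of all at 11433 CPM.

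The decrease was shared by most subunits and all 5 complexes. In the contrast of tumor against non-tumor liver averaged over the 4 genotype and diet groups, 61 of 79 genes were lower and 2 were higher at an adjusted p below 0.05 (limma on log2(CPM + 1), Benjamini-Hochberg over all genes). Of all 13503 genes tested, 20.9% were lower and 37.6% higher, so that 58.5% were called. The median log2 fold change was -0.37 for the 79 genes, which is 77.5% of the non-tumor level, and 0.12 for all genes. Lower genes numbered 28 of 36 in complex I, 4 of 4 in complex II, 7 of 9 in complex III, 10 of 14 in complex IV and 12 of 16 in complex V. The medians by complex were -0.34, -0.50, -0.43, -0.37 and -0.31 from I to V.

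**Figure D2:**
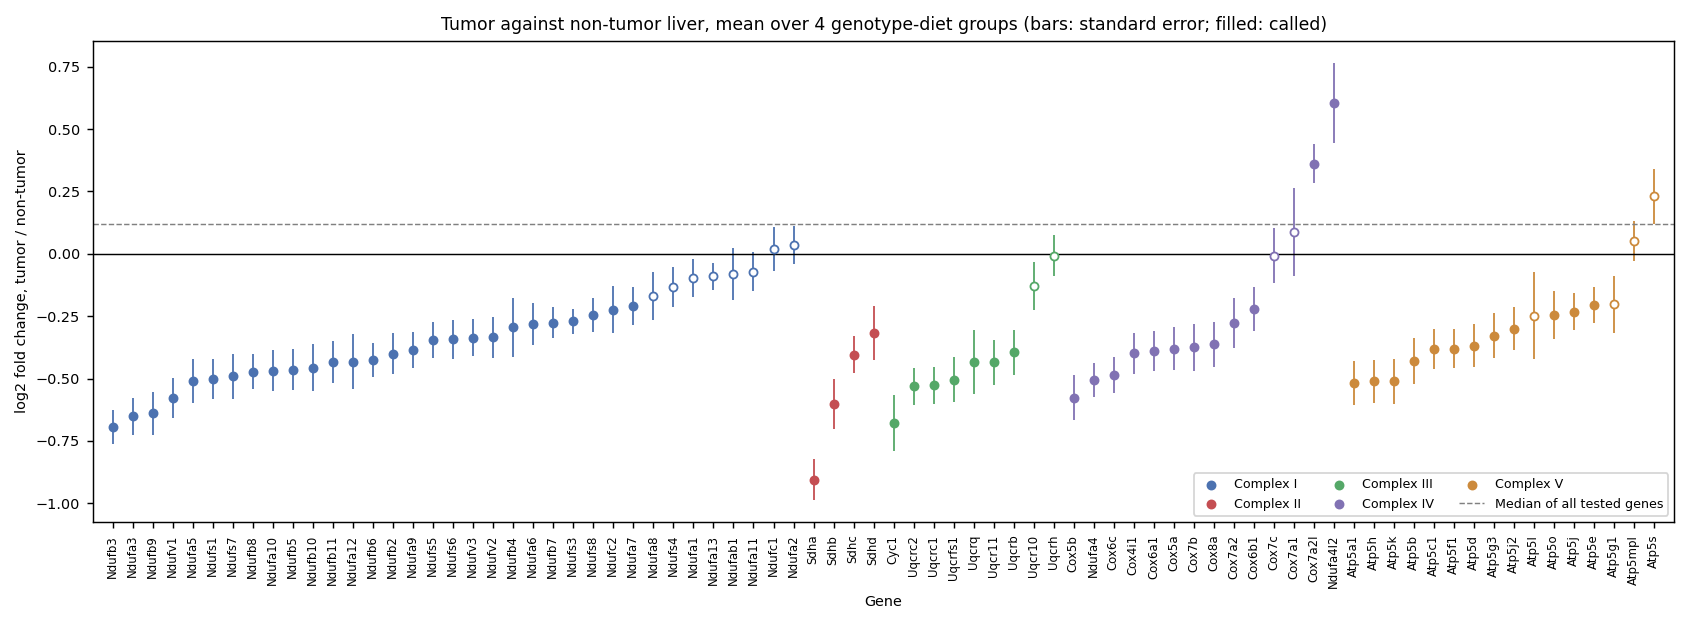
Log2 fold change of tumor against non-tumor liver for 78 of the 79 genes, averaged over the 4 groups and ordered within complexes, with bars for the standard error. Sdha lies lowest at -0.91, and Ndufa4l2 and Cox7a2l are the 2 genes called higher.

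All 4 subunits of complex II fell. Sdha (chr13:74322254-74350280, GRCm38, minus strand), the flavoprotein that oxidises succinate, had lowest, median and highest values of 385, 469 and 522 CPM in the 14 non-tumor libraries and of 193, 241 and 366 CPM in the 14 tumors. The fold change was -0.91 ± 0.08 on the log2 scale (± SE, adjusted p = 3.56e-09, limma). Every tumor was below every non-tumor library, which held for Sdha alone among the 79 genes and for 2.01% of all genes. Sdhb, which carries the iron-sulfur centres, fell from 146 ± 15.3 to 98.3 ± 27.2 CPM (log2 fold change -0.60 ± 0.10, adjusted p = 1.72e-05). The membrane anchors Sdhc and Sdhd changed by -0.40 ± 0.07 (adjusted p = 6.82e-05) and -0.32 ± 0.11 (adjusted p = 0.0145). For Sdhd the groups overlapped, with 218 CPM in tumor dHEP-550 and 179.7 CPM in tumor FF-168, the 2 highest values of all.

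The summed CPM of complex II, led by Sdha, was also lower relative to that of complex V within libraries. It was 23.5% to 28.8% of the complex V sum in non-tumor liver (median 26.5%) and 19.9% to 24.5% in tumors (median 22.0%). The ranges overlapped slightly. Sdha was the largest part of the complex II sum, at means of 467 CPM in non-tumor liver and 253 CPM in tumors. Sdhb, Sdhc and Sdhd averaged 146, 110 and 142 CPM in non-tumor liver and 98.3, 84.6 and 118 CPM in tumors. The share of complex II without Sdha was not examined, so the lower share cannot be ascribed to subunits other than Sdha. For complexes I, III and IV the medians of this share were 71.3%, 32.4% and 47.2% in non-tumor liver and 73.3%, 31.7% and 49.3% in tumors, and their ranges overlapped widely.

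In complex III, Cyc1 (chr15:76343523-76346260, plus strand), which hands electrons to cytochrome c, was at 69.2, 76.3 and 94.7 CPM (lowest, median, highest) in non-tumor liver and at 36.5, 45.7 and 99.8 CPM in tumors. Its fold change was -0.68 ± 0.11 (adjusted p = 1.5e-05). Tumor dHEP-550 lay above the whole non-tumor range and the other 13 tumors lay below it. The core subunits Uqcrc1 and Uqcrc2 and the Rieske iron-sulfur protein Uqcrfs1 fell as well, by 0.53, 0.53 and 0.51 on the log2 scale. Uqcrh, the hinge protein, was at 109 ± 7.30 CPM in non-tumor liver and 111 ± 24.4 CPM in tumors and was not called (log2 fold change -0.01 ± 0.08, adjusted p = 0.949). Uqcr10 was not called either.

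The largest fall in complex I was in Ndufb3 (chr1:58586384-58595964, plus strand), an accessory subunit of the membrane arm. Its lowest, median and highest values were 28.2, 32.2 and 41.3 CPM in non-tumor liver and 17.1, 19.2 and 30.3 CPM in tumors, a fold change of -0.69 ± 0.07 (adjusted p = 8.87e-09). Tumor dHEP-550, at the highest of these values, reached into the non-tumor range and the other 13 tumors lay below it. Ndufa3 fell from 60.3 to 39.2 CPM (-0.65 ± 0.07, adjusted p = 8.79e-08) and Ndufb9 from 138 to 91.4 CPM (-0.64 ± 0.09, adjusted p = 1.22e-06). Ndufv1, the subunit that binds NADH, fell by 0.58 on the log2 scale. The 8 subunits of complex I that were not called were Ndufa1, Ndufa2, Ndufa8, Ndufa11, Ndufa13, Ndufab1, Ndufc1 and Ndufs4.

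**Figure D3:**
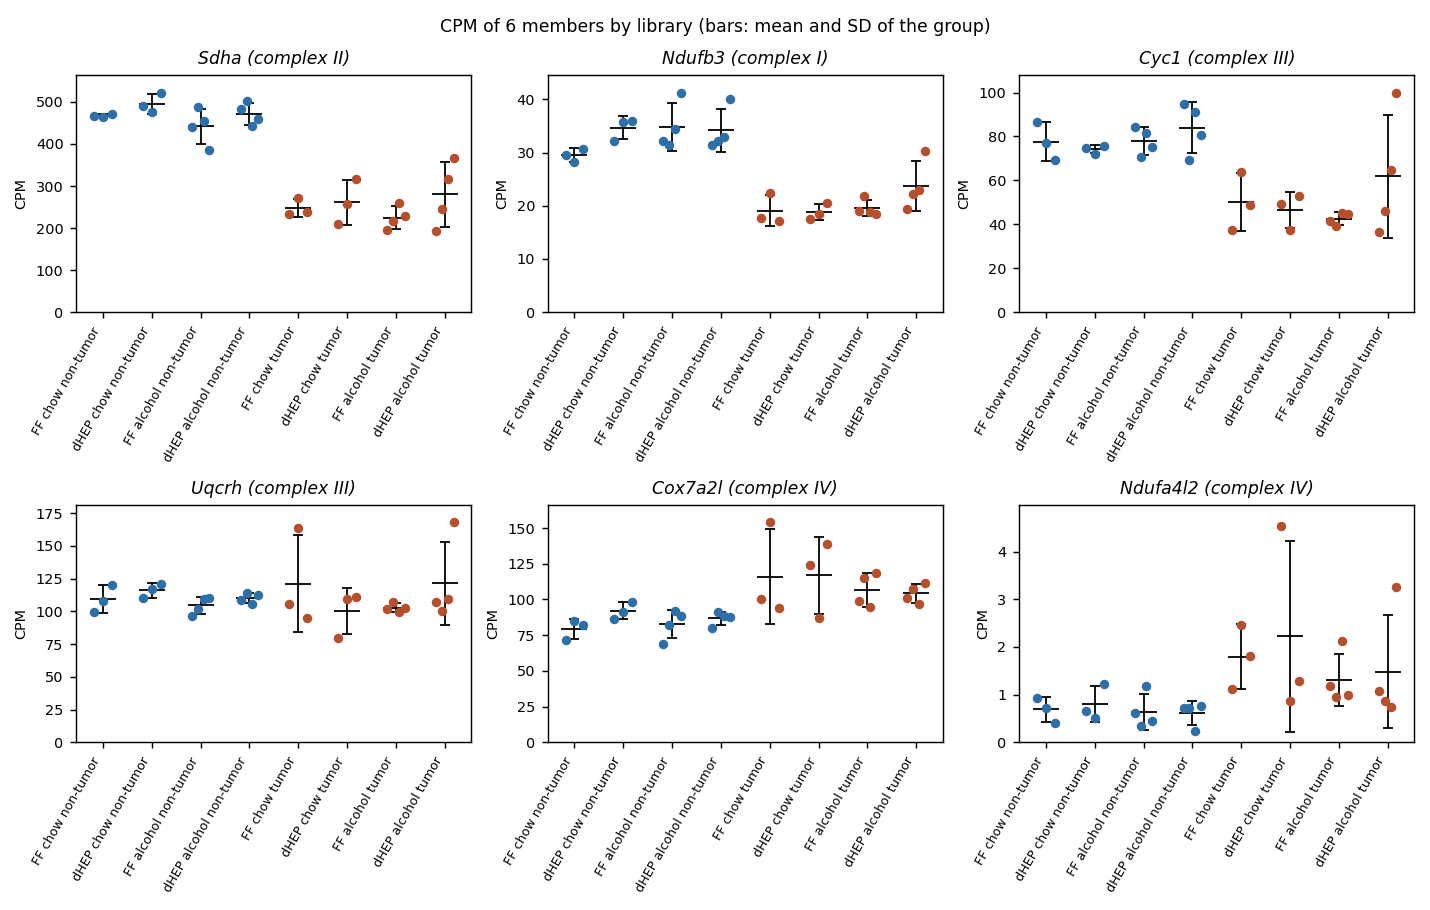
CPM of Sdha, Ndufb3, Cyc1, Uqcrh, Cox7a2l and Ndufa4l2 in every library, by group. Sdha is lower in each of the 14 tumors than in each of the 14 non-tumor libraries, Uqcrh overlaps fully, and Cox7a2l and Ndufa4l2 are higher in most tumors.

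In complex IV, 10 of 14 genes fell. They included Cox5b from 136 ± 10.1 to 94.4 ± 28.2 CPM (-0.58 ± 0.09), Cox4i1 from 247 to 190.4 CPM (-0.40 ± 0.08), and Ndufa4 from 178 to 127 CPM (-0.51 ± 0.07). The liver isoforms Cox6a1, Cox8a, Cox7a2 and Cox6b1 fell by 0.39, 0.36, 0.28 and 0.22 on the log2 scale. Cox6c fell by 0.49. Cox7a1 was not called (0.09 ± 0.18) at levels near 1 CPM, where the added 1 CPM understates a change, and neither was Cox7c.

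Both genes called higher are paralogs within complex IV. Cox7a2l (chr17:83501918-83517330, minus strand), whose protein is known for joining complexes III and IV, and which C57BL/6 mice are known to carry in a shortened form, was at 68.9, 87.0 and 98.4 CPM (lowest, median, highest) in non-tumor liver and at 87.2, 104 and 154 CPM in tumors. It rose by 0.36 ± 0.08 on the log2 scale (adjusted p = 0.000363), with overlapping groups. Set against its paralog Cox7a2 in the same library, it was 78.0% to 101% of the CPM of Cox7a2 in non-tumor liver (median 93.9%) and 72.01% to 234% in tumors (median 143%), shares that depend on the lengths of both genes. Ndufa4l2 (chr10:127514967-127517154, plus strand), known as a target of hypoxia-inducible factor, was at 0.245, 0.684 and 1.22 CPM in non-tumor liver and at 0.743, 1.14 and 4.53 CPM in tumors. It rose by 0.61 ± 0.16 (adjusted p = 0.00243), and most values lay within a few CPM of 0, where the added 1 CPM understates a change.

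In complex V, Atp5a1 and Atp5b, the alpha and beta subunits of the catalytic head, fell from 841 to 603 CPM (-0.52 ± 0.09) and from 1015 to 779 CPM (-0.43 ± 0.09). Atp5h, the peripheral stalk subunit d, fell by 0.51 on the log2 scale. Of the genes for subunit c, which forms the rotating ring, Atp5g3 fell by 0.33 and Atp5g1 was not called (-0.20 ± 0.11, adjusted p = 0.136). The identical copy of Atp5g2, Gm10175, was higher in tumors by 0.18 ± 0.08 (adjusted p = 0.0426), and the copy of Atp5l, Gm10221, was lower, at -0.38 ± 0.08 (adjusted p = 0.000162). Atp5l, Atp5mpl and Atp5s were not called. Genes with near-identical copies and genes without them were called lower in 15 of 20 and in 46 of 59 cases.

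Called genes were spread over promoters with and without the searched letters. Among the 16 genes with an NRF1 match 14 were lower (median log2 fold change -0.34), and among the 49 without one 36 were lower (median -0.34). For ETS the counts were 14 of 16 and 36 of 49, with medians of -0.30 and -0.35. For YY1 they were 5 of 7 and 45 of 58, with medians of -0.30 and -0.35. These counts were not tested.

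Tumors did not share the decrease evenly. For each tumor, the 79 genes were set against the range of the 14 non-tumor libraries. In 10 of the 14 tumors 57 to 69 genes lay below that range, as did 9.78% to 28.4% of all tested genes, and the median gene stood at 63.3% to 78.6% of the non-tumor level. Tumors dHEP-165 and dHEP-549 were intermediate, with 37 and 32 genes below the range (15.8% and 17.1% of all genes) and medians of 87.7% and 89.8%. Tumor FF-168 had 19 genes below and 17 above (15.1% and 37.6% of all genes), with a median of 98.8%. Tumor dHEP-550 had 1 gene below and 62 above (19.4% and 28.2% of all genes), with a median of 129%. Its Sdha value, 366 CPM, was still under the whole non-tumor range. Tumor dHEP-550 also had the lowest summed markers of all 28 libraries for macrophages (73.1 CPM), cholangiocytes (7.38 CPM) and endothelium (193 CPM). It had the highest for proliferation (389 CPM). Its summed hepatocyte markers (122817 CPM), which rest mostly on Alb, lay within the range of the other tumors. The part of these marker levels in its respiratory chain values was not tested.

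**Figure D4:**
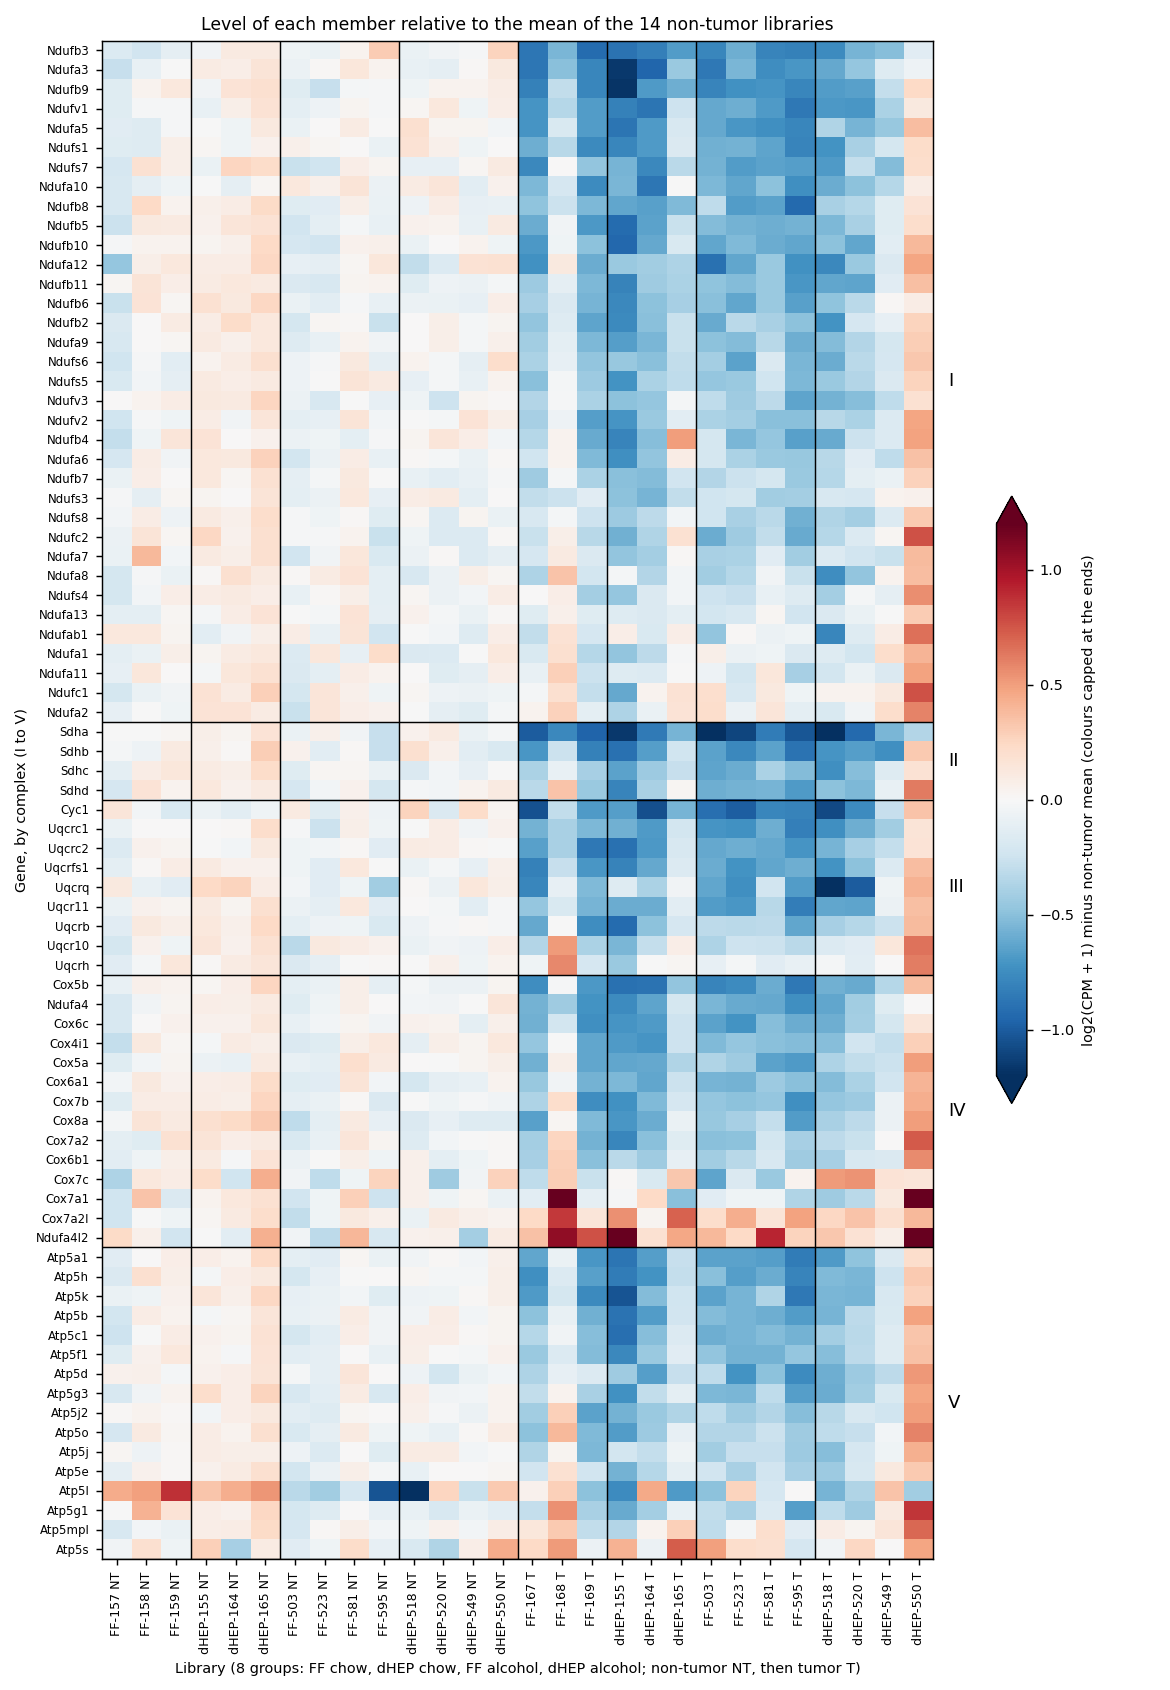
Log2 difference of 78 of the 79 genes (rows, by complex) in each of the 28 libraries (columns) from the mean of the 14 non-tumor libraries, with colours capped at 1.2 in either direction. Most tumor columns are low throughout, while tumor dHEP-550 is high for most genes (62 of 79 above the non-tumor range).

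Libraries of 1 non-tumor group held nearly the same levels, and those of some tumor groups did not. The median SD of the log2 level across the libraries of a group was 0.07 to 0.12 for the 79 genes in the 4 non-tumor groups, where it was 0.15 to 0.25 for all tested genes. In tumors it was 0.11 against 0.23 in FF alcohol, 0.27 against 0.36 in dHEP chow, 0.28 against 0.24 in FF chow and 0.39 against 0.34 in dHEP alcohol. Without tumor dHEP-550 the last became 0.18 against 0.30. The SD also depends on the level of a gene, and the members and all tested genes were not matched for level.

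Markers of other cell types were looked at in the contrast averaged over the 4 groups. Of all 13503 genes in it, 5078 were higher and 2828 lower in tumors. Markers of stellate cells and smooth muscle were higher in tumors for 7 of 10 genes and lower for 1 (Lrat), and summed to 108 to 327 CPM in non-tumor liver and 137 to 843 CPM in tumors. Lymphocyte markers were higher for 5 of 6 tested (sums of 1.73 to 23.6 and of 9.92 to 849 CPM). Macrophage markers were lower for 5 and higher for 1 of 7 (218 to 663 and 73.1 to 499 CPM). Proliferation markers were higher for 5 of 5 (7.76 to 56.7 and 44.7 to 389 CPM), and cholangiocyte markers for 2 of 5 (22.5 to 104 and 7.38 to 3166 CPM). Endothelial markers were higher for 3 and lower for 2 of 7 (241 to 472 and 193 to 582 CPM), erythroid markers lower for 1 of 5 (277 to 966 and 152 to 1278 CPM), and fat markers higher for 1 and lower for 2 of 3 tested (5.71 to 150.3 and 12.3 to 57.1 CPM). Hepatocyte markers were lower for 8 and higher for 2 of 10, with Alb and Apoa1 higher and Cyp2e1 and Cyp2f2 lower. None of the 6 striated muscle markers reached the filter. The counts of cholangiocyte and endothelial markers called higher, and of erythroid markers called lower, lay near the shares of all genes. The part of these cell types in the respiratory chain result was not tested.

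In FF mice on alcohol, 41 of 79 genes were lower in tumors and 0 were higher (of all genes 10.6% were lower and 13.9% higher, 24.6% in all), with a median log2 fold change of -0.42 against 0.05 for all genes. All 4 tumors were below all 4 non-tumor libraries for 57 genes, as for 12.4% of all genes. Sdha was at 440.0, 488, 454 and 385 CPM in non-tumor liver and at 195, 216, 259.5 and 228 CPM in tumors (log2 fold change -0.97 ± 0.15, adjusted p = 7.28e-05, limma). Cyc1 was at 84.5, 70.6, 81.7 and 75.3 CPM and at 41.5, 39.1, 45.2 and 44.7 CPM (-0.86 ± 0.21, adjusted p = 0.00355). Neither gene overlapped between the groups. Ndufb3, Ndufa3 and Ndufa5 were the next largest, at -0.80, -0.74 and -0.71. Leaving out 1 library gave 26 to 37 calls, the fewest without non-tumor FF-581.

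In FF mice on chow, tumors and non-tumor samples carry different numbers. There 16 genes were lower (9.55% of all genes) and 1 was higher (21.2%, and 30.8% of all genes were called). The median was -0.31 against 0.16. All 3 tumors were below all 3 non-tumor libraries for 26 genes, as for 15.7% of all genes. Sdha was at 465, 465 and 473 CPM in non-tumor liver and 234, 272 and 238 CPM in tumors (-0.92 ± 0.18, adjusted p = 0.000563), without overlap. Cox7a2l was at 71.6, 84.8 and 81.9 CPM and 100.2, 154 and 93.7 CPM (0.51 ± 0.17, adjusted p = 0.0235), again without overlap. After median-of-ratios scaling, which moved the median of all genes in this comparison from 0.16 to 0.01, 36 genes were lower, and Cox7a2l was no longer called at 0.34. Without tumor FF-168, 34 genes were called and the median was -0.49. The count was 9 and 4 without non-tumor FF-158 and FF-159, 6 without tumor FF-167 or FF-169, 11 in a fit of these 6 libraries alone and 49 with quality weights, in place of 17.

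In dHEP mice on chow, 51 genes were lower and 0 higher (of all genes 10.7% were lower and 17.2% higher, 27.9% in all), with a median of -0.55 against 0.14. All 3 tumors lay below all 3 non-tumor libraries for 63 genes, as for 15% of all genes. Sdha was at 489, 476 and 522 CPM in non-tumor liver and at 209, 258 and 316 CPM in tumors, without overlap. The largest falls beside it were in Ndufa3, Ndufb9, Cox5b and Ndufb3, at -0.96, -0.92, -0.87 and -0.85. With the animal as a block, in a fit of these 6 libraries alone, 8 genes were called, and 16 in the same libraries without the block. In the fit of all libraries the count of 51 became 18 without tumor dHEP-155 and 28 without non-tumor dHEP-165.

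In dHEP mice on alcohol, 4 genes were lower and 0 higher (of all genes 7.54% were lower and 12.9% higher, 20.4% in all), with a median of -0.15 against 0.09. Sdha was at 483, 501, 442 and 459 CPM in non-tumor liver and at 193, 245, 318 and 366 CPM in tumors (-0.79 ± 0.15, adjusted p = 0.000942, limma). Ndufb3 was at 31.4, 32.2, 33.0 and 40.2 CPM and 19.4, 22.3, 23.0 and 30.3 CPM (-0.52 ± 0.12, adjusted p = 0.00481). Sdha and Ndufb3 were the 2 genes whose tumors all lay below all non-tumor libraries, as did 7.38% of all genes. Ndufv1 and Uqcrc1 were also lower, at -0.46 and -0.42. The last tumor value given for each gene is that of dHEP-550. Without that tumor 26 genes were called and the median was -0.35, the median was -0.04 without tumor dHEP-518 and -0.08 without tumor dHEP-520, and with the animal as a block in these 8 libraries 1 gene was called, Ndufb3. In the contrast averaged over the 4 groups, leaving out tumor dHEP-550 gave 65 lower and 2 higher genes and a median of -0.42.

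**Figure D5:**
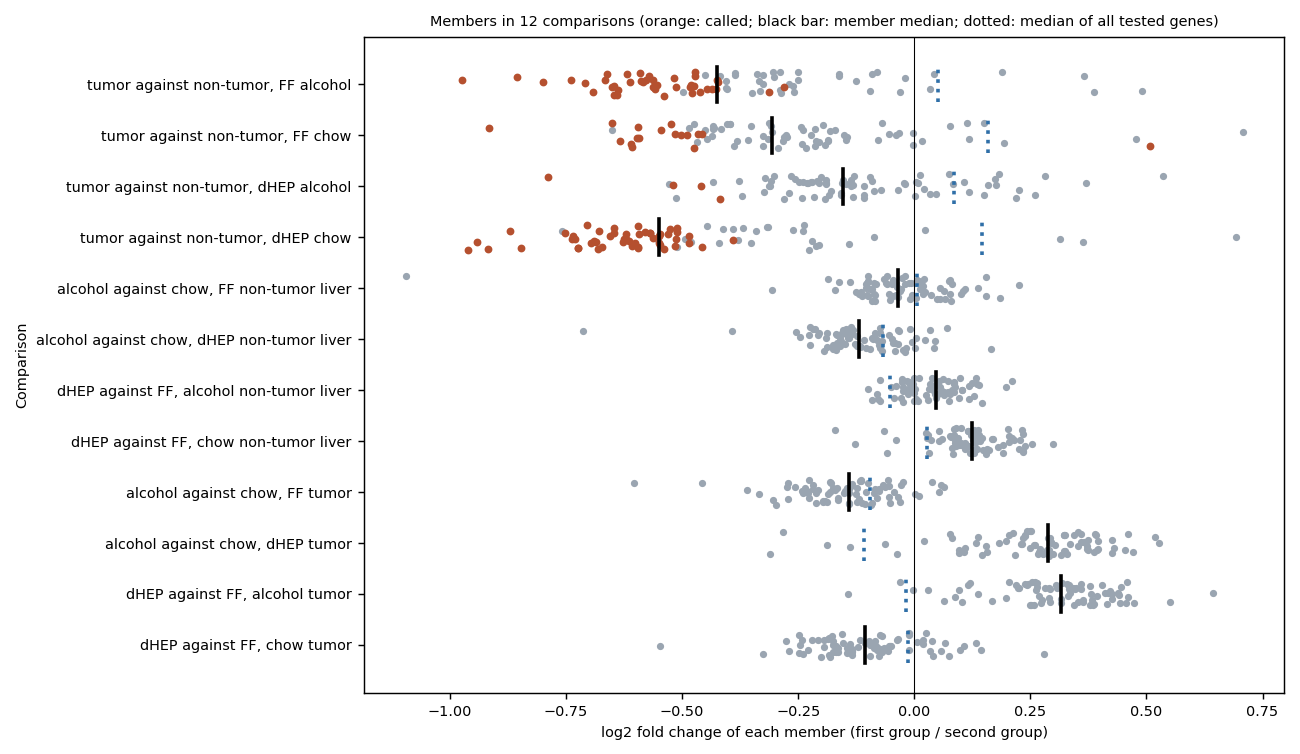
Log2 fold changes of the 79 genes in each comparison of tissue, diet and genotype, with the median of the genes and that of all tested genes marked. The medians of the tumor comparisons lie below 0, from -0.15 in dHEP alcohol to -0.55 in dHEP chow, and those of the diet and genotype comparisons run from -0.14 to 0.32.

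The other genes of mitochondrial respiration did not all follow the subunits. In the contrast averaged over the 4 groups, in which 20.9% of all genes were lower and 37.6% higher, enzymes of the citric acid cycle were lower for 9 of 13 genes and higher for 0, with a median of -0.38. They included the succinate-CoA ligase subunits Suclg2 (-0.86 ± 0.09) and Sucla2 (-0.63) and the citrate synthase Cs (-0.56), and Fh1, Ogdh and Mdh2 were among those not called. Of 45 assembly factors 19 were lower and 2 higher (median -0.14). Sco2, a copper chaperone for complex IV, fell from 29.4 to 11.1 CPM (-1.27 ± 0.16), and the complex I factors Ecsit and Ndufaf1 fell by 0.69 and 0.64. Atpaf1, a chaperone of the complex V head, rose by 0.36, and Coa3 by 0.32.

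Of the mitochondrial ribosomal proteins 16 of 77 were lower, about the share of all genes (20.9%), and 12 were higher, where 37.6% of all genes were (median -0.05). Mrpl52 rose by 0.66, and Mrpl49 and Mrpl14 fell by 0.49 and 0.69. Of 27 genes for membrane carriers, import, dynamics and other mitochondrial proteins, 13 were lower and 5 higher (median -0.16). Mfn2, which fuses outer membranes, and Etfdh, which feeds electrons from fatty acid oxidation into ubiquinone, fell by 1.16 and 1.15, and the superoxide dismutase Sod2 fell from 200.4 to 103 CPM. Slc25a4, an ATP/ADP carrier, and Prdx3 rose by 0.60 and 0.57.

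Among 18 regulators of these genes, 4 were lower and 3 higher (median -0.07), beside 20.9% and 37.6% of all genes. Esrrg, a nuclear receptor that drives oxidative genes, fell from 4.78 to 0.672 CPM (-1.77 ± 0.18). The coactivator Ppargc1b fell by 0.79 and Polg2 and Tfb2m, of mitochondrial DNA replication and transcription, by 0.58 and 0.32. The coactivator Pprc1 rose by 0.72, and Nrf1 and Gabpb1 by 0.24 each. Ppargc1a, Gabpa, Esrra, Yy1 and Tfam were not called.

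Diet did not separate the genes at the threshold. In the fits of each tissue (78 of the 79 genes tested in non-tumor liver, 79 in tumors), limma called 0 genes between alcohol and chow in all 4 comparisons, where 0.577% and 0.656% of all genes were called in FF and dHEP non-tumor liver (0.466% lower and 0.19% higher on alcohol in the latter), and 0 and 0.00757% in FF and dHEP tumors. At an unadjusted p below 0.05 there were 2 and 12 genes in FF and dHEP non-tumor liver, and 0 and 4 in tumors. Of all genes, 1767 and 1662 of 12651 had such a p in non-tumor liver, and 718 and 1441 of 13205 in tumors. The median log2 differences (alcohol minus chow) were -0.04 and -0.12 in FF and dHEP non-tumor liver and -0.14 and 0.29 in FF and dHEP tumors. For all genes they were 0.006 and -0.07 in non-tumor liver and -0.10 and -0.11 in tumors. Leaving out 1 library gave member medians from -0.09 to 0.001 and from -0.14 to -0.07 in non-tumor liver and from -0.25 to 0.02 and from 0.12 to 0.43 in tumors. The direction turned in FF non-tumor liver without chow FF-158 and in FF tumors without chow FF-168, and the dHEP tumor value was 0.12 without dHEP-550 and 0.18 without dHEP-155. A missed threshold does not show that the levels were alike.

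In dHEP non-tumor liver 70 of 78 genes were lower on alcohol in their mean, as were 73 of 79 in FF tumors, while in dHEP tumors 73 of 79 were higher. The medians of all genes were -0.07 in dHEP non-tumor liver, -0.10 in FF tumors and -0.11 in dHEP tumors. The share of all genes in each direction was not counted. These counts rest on the same few libraries, and the median in FF tumors turned without chow tumor FF-168. In dHEP non-tumor liver 24 genes had all 4 alcohol libraries below all 3 chow libraries, as did 12.9% of all genes. After median-of-ratios scaling the median of the 78 genes there was -0.05, and without chow dHEP-165 it was -0.07. Cox8a was at 114, 119.8, 115 and 115 CPM on alcohol and at 147, 151 and 159.9 CPM on chow (-0.39 ± 0.09, adjusted p = 0.0776, limma). The groups did not overlap. Ndufc2 was next, at 38.6 ± 2.38 and 46.2 ± 3.34 CPM (-0.25 ± 0.10, adjusted p = 0.289). In FF non-tumor liver the smallest unadjusted p values belonged to Atp5l, whose level is uncertain, and to Atp5g1, at 115 ± 7.33 CPM on alcohol and 144 ± 21.7 CPM on chow (-0.31 ± 0.10, adjusted p = 0.189). In dHEP tumors they belonged to Ndufs3 (67.9 ± 6.63 and 52.2 ± 5.14 CPM, adjusted p = 0.332) and Ndufa3 (48.4 ± 8.76 and 33.6 ± 9.21 CPM, adjusted p = 0.348). Without dHEP-550 the alcohol means were 65.9 ± 6.46 and 45.4 ± 7.76 CPM (n = 3, adjusted p = 0.41 and 0.45, limma).

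Hepatocyte deletion of Il17ra did not separate the genes at the threshold either. Between dHEP and FF mice limma called 0 members in all 4 comparisons, as it called 0% of all genes. At an unadjusted p below 0.05 there were 0 and 7 genes in non-tumor liver on alcohol and chow, and 6 and 0 in tumors on alcohol and chow. Of all genes, 1077 and 588 of 12651 had such a p in non-tumor liver, and 833 and 378 of 13205 in tumors. The median differences (dHEP minus FF) were 0.05 and 0.12 in non-tumor liver and 0.32 and -0.11 in tumors, on alcohol and chow in turn. For all genes they were -0.05 and 0.03 in non-tumor liver and -0.02 and -0.01 in tumors. Leaving out 1 library gave member medians of 0.01 to 0.09 and 0.07 to 0.15 in non-tumor liver and 0.14 to 0.44 and -0.24 to 0.04 in tumors. The value of 0.14 was without dHEP-550, and the chow tumor median turned without FF-168. In chow non-tumor liver 22 genes had all 3 dHEP libraries above all 3 FF libraries, as did 6.85% of all genes. Atp5g3 was at 169.8, 155.3 and 176 CPM there in dHEP and at 128, 142 and 151 CPM in FF mice (0.25 ± 0.10, adjusted p = 0.988), and Ndufc1 was at 26.0 ± 1.76 and 20.9 ± 1.35 CPM (0.30 ± 0.11, adjusted p = 0.988). Both sets of 3 were apart. In tumors on alcohol Ndufb8 averaged 58.2 ± 10.7 CPM in dHEP mice and 42.1 ± 7.83 CPM in FF mice (0.46 ± 0.16, adjusted p = 0.727), with overlap. Without dHEP-550 its mean in dHEP mice was 53.3 ± 4.89 CPM (0.34 ± 0.16, n = 3, adjusted p = 0.999, limma).

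The size of the tumor difference was compared between diets and between genotypes as an interaction. Limma called 0 of the 79 genes, and 0% of all genes, in each of these 4 contrasts. In dHEP mice the tumor difference was less negative on alcohol than on chow for 74 of 79 genes, by a median of 0.38, with 19 genes at an unadjusted p below 0.05 and a smallest adjusted p of 0.636. Of all 13503 genes 867 had such a p, and the median of all genes was -0.04. The share of all genes in this direction was not counted. In FF mice the median was -0.13 and 1 gene had an unadjusted p below 0.05, beside -0.09 and 801 for all 13503 genes. Between genotypes (dHEP minus FF) the median was 0.26 on alcohol and -0.24 on chow, with 4 and 1 genes at an unadjusted p below 0.05. For all 13503 genes the medians were 0.04 and -0.04, with 266 and 421 genes at such a p. The diet by genotype contrast within a tissue had medians of -0.08 in non-tumor liver and 0.42 in tumors, 2 and 4 genes at an unadjusted p below 0.05 and 0 called (0% of all genes). For all genes its medians were -0.08 and 0.004, with 870 of 12651 and 653 of 13205 at an unadjusted p below 0.05. The dHEP alcohol tumors, with dHEP-550 among them, enter the contrasts of dHEP mice and of alcohol. Leaving out any 1 library gave 0 called members in each of these contrasts. The medians then ran from 0.21 to 0.51 for diet in dHEP mice, from -0.21 to 0.02 for diet in FF mice, from 0.09 to 0.37 and from -0.38 to -0.08 for genotype on alcohol and chow, and from -0.11 to -0.03 and from 0.25 to 0.54 for diet by genotype in non-tumor liver and tumors. Without dHEP-550 they were 0.21 for diet in dHEP mice, 0.09 for genotype on alcohol and 0.25 for diet by genotype in tumors. Without tumor FF-168 the median for diet in FF mice turned to 0.02 and that for genotype on chow was -0.08.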

How the data were processed

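Bulk RNA was measured by sequencing in 28 mouse liver libraries. The deposited values are gene-level CPM, made by the authors from GRCm38 alignments (STAR 2.5.1a, then RSEM 1.3.0, per the submitters' processing notes), and each column sums to 1000000. All columns belonged to these samples. Symbols were found for 21653 gene IDs in the GENCODE annotation, and the 534 others held at most 0.166% of a library. Only 84.9% to 86.8% of values up to 20 reads were whole to within 0.1 read, so no count model was used. The highest Pearson r between libraries was 0.9913, and none was taken as a duplicate. The table was tested with limma 3.58.1 (R 4.3.3), on log2(CPM + 1) values and with the prior variance allowed to follow the mean. Genes had to reach 1 CPM in 3 fitted libraries. Tissue contrasts and their interactions used all 28 libraries, and diet and genotype the 14 of a tissue. Genes were called at an adjusted p below 0.05 (Benjamini-Hochberg over all genes), and the code was tested on simulated data. Nothing in the labels says that tumors or samples were otherwise independent, so p-values measure the spread between these samples.

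The members, gene lists, motifs and tests were chosen with earlier results of these data known. Named genes were isoforms and complex II by name, and up to 5 called genes in each direction and comparison by size, if the higher group averaged 5 CPM. They also included the 2 of smallest p where none was called, the highest and lowest per kb in each complex, those called against their complex, and up to 3 of each other list. Some others were chosen after their values were seen, among them genes that were not called and the near-identical copies, found with blastn 2.17.0. Some genes counted in the totals are not reported here by name. Other steps used Python 3.11.15.

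Deviations from group means of tumor and non-tumor libraries with the same number correlated at 0.16 to 0.36 in FF alcohol, -0.11 to 0.25 in dHEP alcohol and 0.07 to 0.19 in dHEP chow. The number was taken as the animal. Alternatives were median-of-ratios scaling, sample quality weights, 0.5 as the pseudocount, no filter, a minimum mean of 5 CPM, the compared groups only, all 28 libraries for diet and genotype, an animal block, and leaving out each library.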

Additional observations from a re-analysis of the deposited data

Results flagged for a closer look

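In groups of 4 libraries, 7 of the 92 sets of values examined for named genes held a library far from the other 3, its gap to the nearest taking 0.831 to 0.952 of the whole range; chance gives this in about 1 in 20 sets. Tumor dHEP-550 stood far above the other dHEP alcohol tumors for Sdhb (180.4 CPM), Uqcrh (168.2 CPM) and Ndufa4l2 (3.26 CPM). Tumor dHEP-549 of the same group was apart from the other 3 for Atp5l (2.46 CPM), and its non-tumor library was apart for Ndufa4l2 (0.245 CPM). Among FF alcohol tumors, FF-523 was apart for Ndufb3 (21.8 CPM) and FF-595 for Atp5a1 (470.0 CPM).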

How the results depend on the processing

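In the tissue contrast averaged over the 4 groups, 57 of the 63 called genes were called in every alternative and every fit without 1 library; the exceptions were Atp5o, Cox6b1, Cox7a2, Ndufa7, Ndufb4 and Ndufc2. The count ran from 59 to 67 when 1 library was left out, and the median from -0.42 to -0.34. Within groups the counts were less stable. In FF alcohol the count of 41 ran from 26 (without non-tumor FF-581) to 37, with medians from -0.47 to -0.39. In FF chow the count of 17 became 36 with median-of-ratios scaling, 49 with quality weights and 11 with the compared groups only. It ran from 4 to 34 without 1 library: 9 and 4 without non-tumor FF-158 and FF-159, 6 without tumor FF-167 or FF-169, and 34 without tumor FF-168. In dHEP alcohol the count of 4 became 7 with median-of-ratios scaling, 10 with quality weights and 1 with the compared groups only. It ran from 2 to 26: 2 without non-tumor dHEP-518, dHEP-520 or dHEP-550 or tumor dHEP-518 or dHEP-520, and 26 without tumor dHEP-550. In dHEP chow the count of 51 became 16 with the compared groups only, and ran from 18 (without tumor dHEP-155) to 58, with 28 without non-tumor dHEP-165. Alcohol against chow in dHEP non-tumor liver gave 1 called gene under quality weights and 1 in the compared groups only, in place of 0. The causes of these changes were not tested. With the animal as a replicate block fixed in the compared groups, the counts were 57 in FF alcohol, 1 in dHEP alcohol and 8 in dHEP chow; as a random block it gave 63 in the averaged contrast and 0 in the interactions. No paired analysis was possible for FF chow, or for diet and genotype, because those groups share no animal numbers. Without 1 library, all diet, genotype and interaction counts ran from 0 to 0. Estimated depth of 9.57 to 17.8 M reads limits genes near 1 CPM, such as Ndufa4l2 and Cox7a1.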
